A study of Arabidopsis thaliana with 8 samples.

Results

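The nuclear genes for the light-harvesting antennae, the photosystems and the small subunit of Rubisco were followed in whole Arabidopsis thaliana seedlings kept at normal or warm temperature. The set holds 44 genes, named by their locus identifiers out of 33602 loci in the count table, and all 44 were found and passed the filter on low counts. They were grouped by complex into 4 antenna genes of photosystem I (PSI), 9 genes of the major antenna of photosystem II (PSII), 5 genes of the minor PSII antenna, 4 Rubisco small subunit genes, 12 PSI subunits, 5 genes of the oxygen-evolving complex and 5 other PSII subunits. Seedlings of a C24 by Col cross, called the Col hybrid here, and of a C24 by pif4-101 cross, called the pif4 hybrid, were compared. The allele pif4-101 is a mutant allele of PIF4, whose protein is a bHLH factor needed for stem elongation in warmth and in shade. All seedlings had C24 as a parent, spent 3 days at 4 °C in the dark and 1 day at 22 °C, and grew on agar medium with 8 h of light and 16 h of dark. After this the plates stayed at 22 °C or moved to 27 °C, and seedlings were collected as the lights came on (ZT0), labelled as day 4 or day 7 after sowing. Whether these days include the time at 4 °C, and so how long the warm plates spent at 27 °C, is not given here. Each of the 8 conditions was 1 pool of seedlings and 1 RNA-sequencing library, so no condition had a replicate. The fits over all genes used the 8 libraries together, 4 against 4 for each factor with the other 2 factors in the model, unless a smaller set of libraries is named.

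LHCA and LHCB proteins bind chlorophyll and pass light energy to the reaction centres of PSI and PSII. PSII oxidises water at the oxygen-evolving complex, PSI reduces ferredoxin, and Rubisco fixes carbon dioxide in the Calvin cycle. These genes are transcribed in the nucleus, are induced by light in green tissue, and in seedlings depend on GLK transcription factors and on signals from the plastid.

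Library totals ranged from 1664128 counts (Col hybrid, 22 °C, day 4) to 25440561 counts (Col hybrid, 27 °C, day 7), and the 27 °C library was the deeper of the pair in 3 of 4 temperature pairs. PIF4, the gene mutated in the pif4 hybrid, had 97.3 and 72.8 CPM on days 4 and 7 at 22 °C and 176 and 187 CPM at 27 °C in the Col hybrid, and 79.5, 62.5, 186 and 157 CPM in that order in the pif4 hybrid. Its genotype difference was -0.16 (SE 0.11, adjusted p = 1) on the log2 scale, and a count cannot tell the C24 copy from the mutant copy. The summed level of 10 root marker genes was 44.8 to 61.2 CPM (counts scaled to a common library size, with TMM factors) on day 7 and 85.8 to 188.9 CPM on day 4, with the nitrate transporter gene NRT2.1 at 0 in 3 of the day 4 libraries and no other marker at 0. In whole seedlings, fewer green cells and less RNA per green cell cannot be told apart.

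The share of all counts that fell on the 44 genes was highest in the shallowest library and lowest in the deepest. In the Col hybrid it was 14.7% on day 4 and 8.90% on day 7 at 22 °C, and 8.07% and 5.05% at 27 °C. In the pif4 hybrid the values in that order were 9.77%, 7.41%, 5.69% and 7.88%. Exact binomial 95% intervals around these shares were at most 0.0538 percentage points to either side and cover counting error only. Within libraries of near-equal total, the share was 9.77% at 22 °C (8880735 counts) and 8.07% at 27 °C (9128810 counts) on day 4. On day 7 it was 8.90% at 22 °C (11711681 counts) and 7.88% at 27 °C (11125696 counts). In both of these comparisons the 2 libraries came from different hybrids, the 22 °C library being of the pif4 hybrid on day 4 and of the Col hybrid on day 7. The 100 most abundant genes outside the set also went with depth, so each pair is read beside its depth ratio. These 100 were taken by mean CPM with only the 44 members left out. Other photosynthesis genes were not removed from them, so they are not a measure of depth alone. The part of depth in these shares was not tested apart from the alternatives given below each result.

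**Figure D1:**
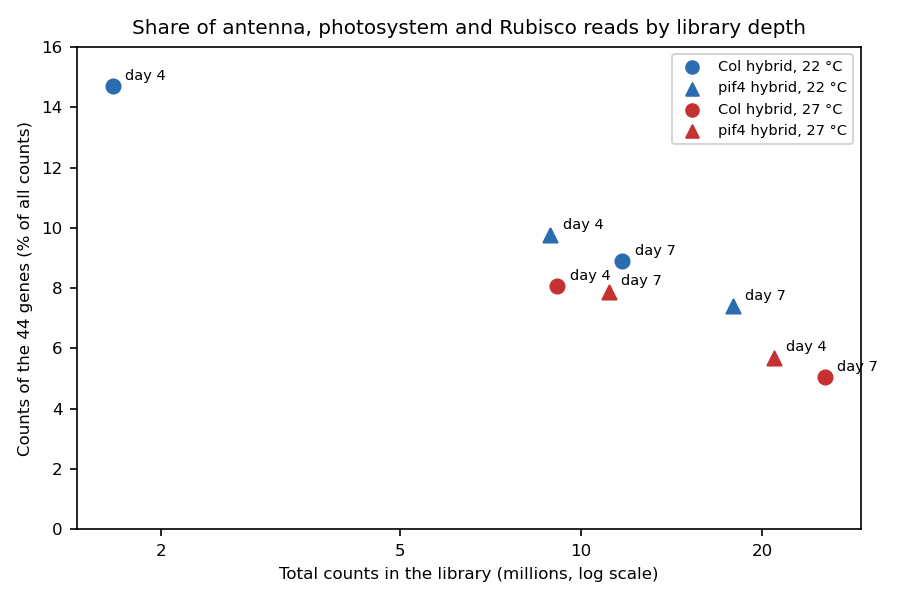
Share of all counts that fell on the 44 genes (%, vertical axis) against the total counts of the library (log scale), 1 point for each of the 8 libraries, coloured by temperature and shaped by hybrid. The share runs from 14.7% in the shallowest library to 5.05% in the deepest, and at near-equal depth the 27 °C libraries lie below the 22 °C libraries.

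Sequences upstream of the PSBQ and RBCS genes are shown because the copies of each family share most of their coding sequence (97.3% between RBCS1B and RBCS2B). Their windows before the annotated start differ in the motifs found. They are RefSeq sequence of the TAIR10.1 build, given 5′ to 3′ on the gene's strand up to the base before the annotated gene start, and capitals mark motifs found by a letter search on both strands (G-box CACGTG, I-box GATAAG or its complement, GLK motif CCAATC or its complement).
PSBQ1, chr4:11334169-11334351, plus strand: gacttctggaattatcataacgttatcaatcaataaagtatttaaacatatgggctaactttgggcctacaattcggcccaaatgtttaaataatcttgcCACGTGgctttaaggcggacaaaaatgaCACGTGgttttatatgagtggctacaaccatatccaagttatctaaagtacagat
PSBQ2, chr4:2673244-2673493, minus strand: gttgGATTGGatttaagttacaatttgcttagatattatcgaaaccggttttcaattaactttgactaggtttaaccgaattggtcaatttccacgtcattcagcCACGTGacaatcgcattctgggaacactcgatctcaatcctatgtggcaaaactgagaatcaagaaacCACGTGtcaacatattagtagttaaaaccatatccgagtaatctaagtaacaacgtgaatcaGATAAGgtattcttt
RBCS1B, chr5:15385321-15385570, minus strand: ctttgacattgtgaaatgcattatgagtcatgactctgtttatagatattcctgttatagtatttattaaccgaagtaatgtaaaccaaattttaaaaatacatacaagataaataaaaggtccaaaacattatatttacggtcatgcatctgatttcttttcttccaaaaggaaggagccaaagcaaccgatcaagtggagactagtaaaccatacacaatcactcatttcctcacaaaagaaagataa
RBCS2B, chr5:15382072-15382321, minus strand: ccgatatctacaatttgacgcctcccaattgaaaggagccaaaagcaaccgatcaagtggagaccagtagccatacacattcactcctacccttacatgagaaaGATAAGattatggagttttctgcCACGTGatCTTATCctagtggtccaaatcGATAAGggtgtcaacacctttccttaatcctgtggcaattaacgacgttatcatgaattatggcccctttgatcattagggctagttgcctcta
The PSBQ1 window was cut to 183 bases where the neighbouring gene begins, and the others are 250 bases long. PSBQ1 and PSBQ2 each held 2 G-boxes, and PSBQ2 also held 1 I-box and 1 GLK motif. RBCS2B held 1 G-box and 3 I-boxes, and the RBCS1B window held none of the motifs searched. The RBCS windows are set by the annotated starts and are offset from each other. The end of the RBCS1B window resembles the stretch of the RBCS2B window that leads up to its first I-box. Sequence past the annotated RBCS1B start was not searched, so the absence of motifs applies to this window only.
In windows of 250 bases, the G-box stood upstream of 9 of the 44 genes (20.5%) and of 6.5% of 27443 genes with an upstream window in the annotation. The I-box stood upstream of 10 (22.7%, against 12.3%), the GLK motif upstream of 11 (25%, against 10.2%) and the CCA1-binding site, AAAAATCT or AACAATCT, upstream of 6 (13.6%, against 8.4%). The evening element AAAATATCT stood upstream of 0 members and of 2.4% of all genes. The median log2 temperature difference was -0.75 for the 9 members with a G-box and -0.71 for the 35 without. It was -0.68 for the 10 with an I-box and -0.73 for the 34 without, -0.65 for the 11 with a GLK motif and -0.75 for the 33 without, and -0.77 for the 6 with a CCA1-binding site and -0.72 for the 38 without.

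The temperature comparison asks how the antenna and photosystem genes differed between seedlings at 27 °C and at 22 °C. All 44 genes had a lower fitted level at 27 °C, with a median log2 fold change of -0.72 and a range of -1.20 to -0.31, beside a median of 0.01 over the 19829 genes tested. By edgeR's quasi-likelihood test with Benjamini-Hochberg adjustment over all genes tested, 28 of the 44 fell and 0 rose at an adjusted p of 0.05. Across all genes tested, 19.2% were called lower and 19.5% higher. The Rubisco small subunit genes had the largest differences, with a median of -1.001 and 4 of 4 genes called, and the PSI antenna the smallest, with a median of -0.60 and 0 of 4 called. Between these stood the other PSII subunits (median -0.74, 5 of 5 called), the major PSII antenna (-0.73, 4 of 9), the PSI subunits (-0.72, 10 of 12), the oxygen-evolving complex (-0.64, 3 of 5) and the minor PSII antenna (-0.61, 2 of 5). The medians of the PSI antenna and the minor PSII antenna lay close, beside SEs of 0.21 to 0.30 for their genes. The order of the groups was not tested. Calls also went with the SE, since LHCB1.3 at -0.84 (SE 0.35) was not called and PSAD2 at -0.48 (SE 0.17) was.

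The 4 matched pairs did not behave alike. The median log2 ratio of the members, 27 °C over 22 °C, was -1.06 in the Col hybrid on day 4, -0.98 in the Col hybrid on day 7 and -0.92 in the pif4 hybrid on day 4, with all 44 members lower in each. In the pif4 hybrid on day 7 the median was -0.00080, with 22 members higher and 22 lower. The log2 ratio of library totals in these pairs was 2.46, 1.12, 1.23 and -0.68, so the last pair was the only pair in which the 27 °C library was the shallower. The medians of the 100 most abundant other genes were -0.51, -0.48, -0.46 and 0.02, so the members lay below them by about the same amount in the 3 pairs with a deeper 27 °C library and level with them in the last. Lower in all 4 pairs were 22 members, while 22.9% of all genes tested were lower in all 4. Every 27 °C library lay below every 22 °C library for 11 members (LHCB1.1, PSAE1, PSAH2, PSAK, PSAN, PSAO, PSBO2, PSBQ1, PSBS, PSBW and PSBX), beside 8.72% of all genes tested.

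Since the abundant genes went with depth, the temperature fit was repeated with depth handled in 3 other ways. With the log2 library total as a covariate 20 members fell, with a median of -0.34 and 12.8% of all genes called lower and 11.4% higher. With offsets that followed the trend of abundant genes outside the set 24 fell, with a median of -0.34 and 19.9% of all genes called lower and 19.2% higher. In the 4 libraries of near-equal depth 27 fell, with a median of -0.35 and 10.8% of all genes called lower and 9.52% higher. These libraries were chosen after seeing the data, and the fit leaves 1 residual degree of freedom. It sets each 22 °C library against a 27 °C library of the other hybrid. Its model held age and temperature but not genotype. In these libraries a difference between hybrids cannot be told apart from an age by temperature difference. No member rose in any of the 3. The medians of these 3 fits lay at -0.34 and -0.35, against -0.72 with TMM scaling alone. The fits differ in more than depth, and the part of depth in the difference between them was not tested. In the fit with TMM scaling alone (the TMM fit) and all 3 of these, 19 members fell, namely LHCB1.1, LHCB2.3, the 4 RBCS genes, PSAE1, PSAF, PSAH2, PSAK, PSAL, PSAN, PSAO, PSBO2, PSBQ1, PSBS, PSBW, PSBX and PSBY. Called in none of the 4 were 14 members, namely all 4 PSI antenna genes, LHCB1.4, LHCB1.5, LHCB3, LHCB4.1, LHCB4.2, LHCB5, PSAE2, PSAG, PSBO1 and PSBQ2. How many of all genes tested fell in all 4 fits, or in none, was not counted, so these counts have no background share. The count of 28 rests on single libraries. Leaving out the 27 °C day 4 library of the pif4 hybrid gave 6, beside 14.5% of all genes called lower, and leaving out the Col hybrid's at 22 °C on day 4 gave 9, beside 18.6%. The count was 15 (11.8% of all genes) without Col 22 °C day 7, 17 (14.4%) without Col 27 °C day 7 and 18 (15.9%) without pif4 22 °C day 4. It was 19 (24.3%) without Col 27 °C day 4, 21 (14.3%) without pif4 22 °C day 7 and 44 (14.1%) without pif4 27 °C day 7. Past the threshold with each library left out in turn were 6 genes, LHCB4.3, RBCS1B, PSAH2, PSBO2, PSBQ1 and PSBS. The share of all genes that pass this joint rule was not counted.

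**Figure D2:**
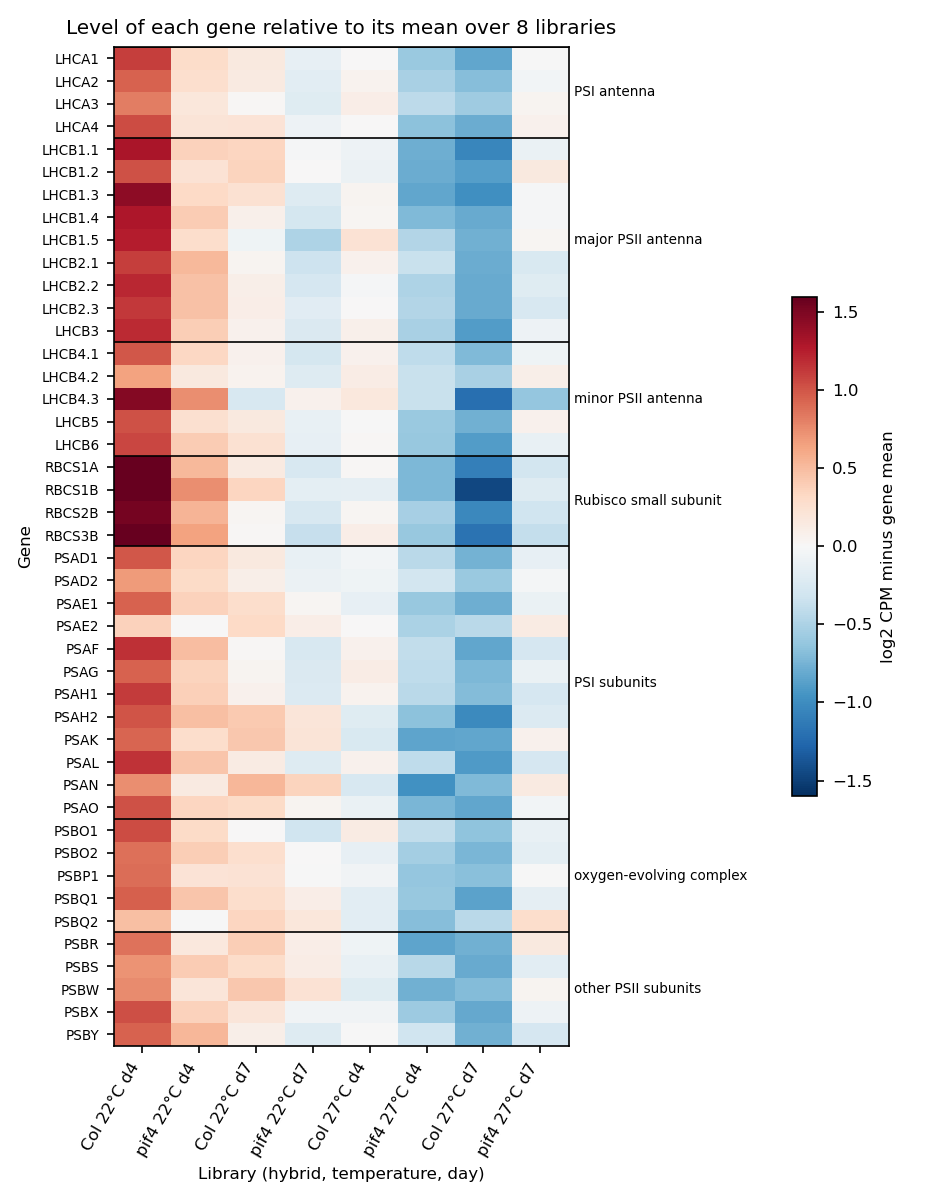
Level of each of the 44 genes (rows, grouped by complex) in each of the 8 libraries (columns), as log2 CPM minus the gene's mean over the 8 libraries. The Col hybrid library at 22 °C on day 4 is highest for nearly all rows and the Col hybrid library at 27 °C on day 7 is lowest for most, and these are the shallowest and the deepest library.

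**Figure D3:**
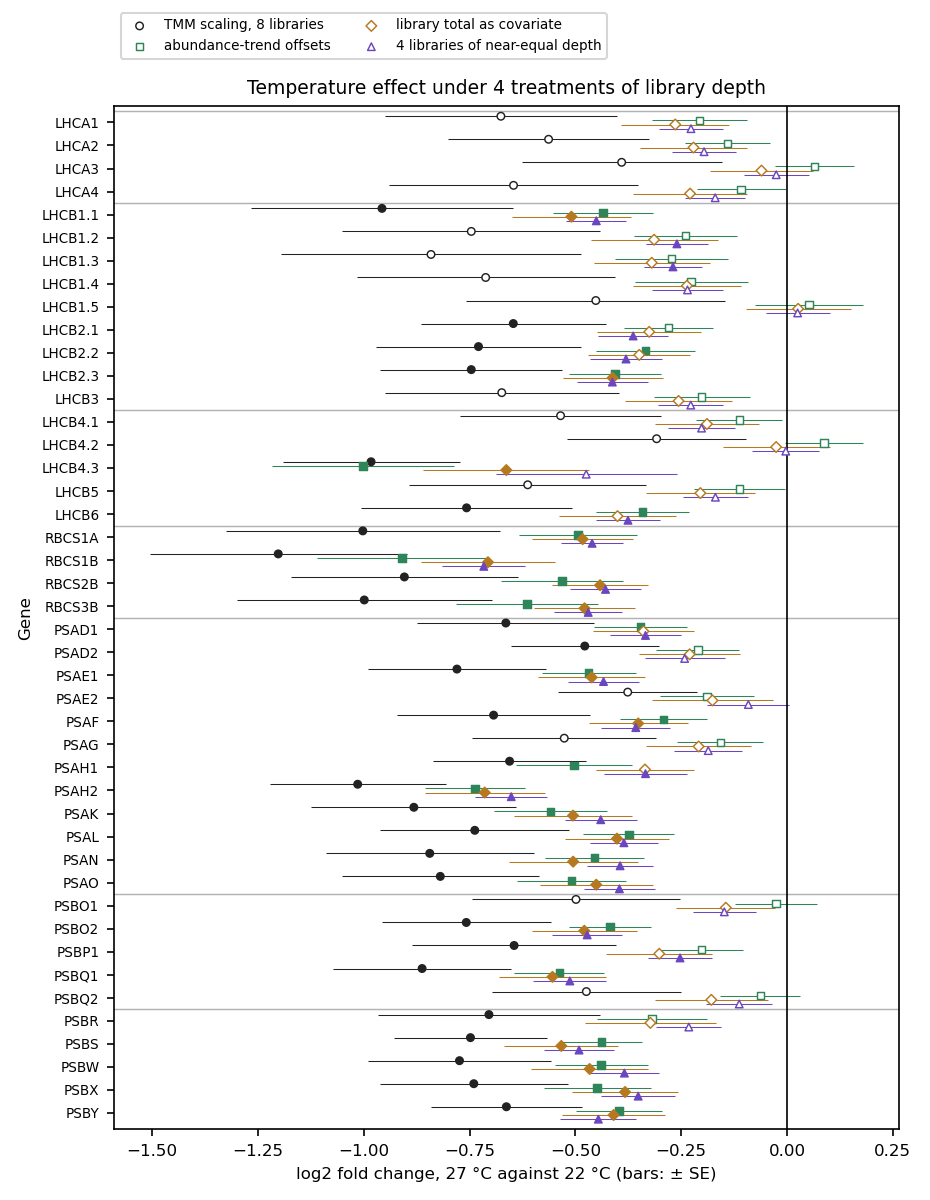
Temperature log2 fold change (horizontal axis, 27 °C against 22 °C, bars ± SE) of each gene in 4 fits that treat library depth differently; filled symbols have an adjusted p under 0.05. The TMM fit lies farthest left for nearly every gene, the RBCS genes stay filled in every fit, and the 4 PSI antenna genes are open in every fit.

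The Rubisco small subunit genes encode the small subunit of the carbon-fixing enzyme and had the largest fitted difference with temperature. RBCS1A (AT1G67090), the most abundant of the 4 per length at 3172 CPM per kb, had 10816 and 3757 CPM on days 4 and 7 at 22 °C and 3448 and 1594 CPM at 27 °C in the Col hybrid, and 4851, 2854, 2072 and 2785 CPM in that order in the pif4 hybrid. The 27 °C libraries lay below their pair in all 4 pairs, by 0.04 on the log2 scale in the pif4 hybrid on day 7. RBCS1A fell, with a fitted log2 difference of -1.002 (SE 0.32, adjusted p = 0.0268), and of -0.46 (SE 0.07, adjusted p = 0.00157) in the libraries of near-equal depth. RBCS1B (AT5G38430) had 2809.6 and 1178 CPM on days 4 and 7 at 22 °C and 843 and 339 CPM at 27 °C in the Col hybrid, and 1562, 838, 566 and 807 CPM in that order in the pif4 hybrid. It had the largest fitted difference of the 44 genes, -1.20 (SE 0.30, adjusted p = 0.0081), and stayed past the threshold when each library was left out in turn. RBCS2B (AT5G38420) had 4047 and 1426 CPM on days 4 and 7 at 22 °C and 1422 and 684 CPM at 27 °C in the Col hybrid, and 2031, 1173, 966 and 1121 CPM in that order in the pif4 hybrid. Its fitted log2 difference was -0.90 (SE 0.27, adjusted p = 0.0183), and -0.43 (SE 0.08, adjusted p = 0.00497) at near-equal depth. RBCS3B fell, with a log2 difference of -0.9988 (SE 0.30, adjusted p = 0.0197). The 4 genes share 13.9%, 21.4% and 14.6% of their 50-base windows with others for RBCS1B, RBCS2B and RBCS3B, and 1.4% for RBCS1A, so counts may be split among them, and the sum of the family is firmer than a member. In each of the 3 depth alternatives all 4 fell, with medians of -0.48 (covariate), -0.57 (trend offsets) and -0.47 (near-equal depth).

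The 4 LHCA genes encode the antenna that feeds PSI and had the smallest median difference of the 7 groups, close to that of the minor PSII antenna. LHCA4 (AT3G47470) had 8568 and 4848 CPM on days 4 and 7 at 22 °C and 4197 and 2397 CPM at 27 °C in the Col hybrid, and 4805, 3924, 2637 and 4377 CPM in that order in the pif4 hybrid. Its fitted log2 difference was -0.65 (SE 0.30, adjusted p = 0.0996), which missed the threshold. LHCA1 (AT3G54890) had 5739 and 2988 CPM on days 4 and 7 at 22 °C and 2679.8 and 1506 CPM at 27 °C in the Col hybrid, and 3270.3, 2434, 1772 and 2656 CPM in that order in the pif4 hybrid. Its fitted log2 difference of -0.68 (SE 0.27, adjusted p = 0.0666) missed the threshold as well. LHCA2 (AT3G61470) had 3734 and 2139 CPM on days 4 and 7 at 22 °C and 2020.4 and 1208 CPM at 27 °C in the Col hybrid, and 2346, 1723, 1359.8 and 1889 CPM in that order in the pif4 hybrid and a fitted log2 difference of -0.56 (SE 0.24, adjusted p = 0.0765). LHCA3 had a fitted log2 difference of -0.39 (SE 0.24, adjusted p = 0.209). For each of the 4 genes 3 pairs were lower and the pif4 hybrid on day 7 was higher, by 0.13 to 0.24 on the log2 scale. At near-equal depth the 4 values ran from -0.23 to -0.03 with none called.

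The major PSII antenna genes LHCB1, LHCB2 and LHCB3 encode the trimeric antenna that binds most of the chlorophyll of PSII. LHCB1.3 (AT1G29930) had the highest level per length of the 44 genes, 5461 CPM per kb. It had 15981 and 6997 CPM on days 4 and 7 at 22 °C and 6096 and 2988 CPM at 27 °C in the Col hybrid, and 7394, 5142, 3313 and 5828 CPM in that order in the pif4 hybrid. Its fitted log2 difference was -0.84 (SE 0.35, adjusted p = 0.076), and -0.27 (SE 0.07, adjusted p = 0.0169) at near-equal depth, past the threshold only in the latter of these fits. LHCB1.1 (AT1G29920) had 9633 and 4938 CPM on days 4 and 7 at 22 °C and 3682 and 1879 CPM at 27 °C in the Col hybrid, and 5020.2, 3821, 2265 and 3597 CPM in that order in the pif4 hybrid. Every 27 °C library lay below every 22 °C library. At 27 °C it fell, with a log2 difference of -0.96 (SE 0.31, adjusted p = 0.0265) and of -0.45 (SE 0.07, adjusted p = 0.00155) at near-equal depth. LHCB2.3 (AT3G27690) had 2437 and 1199.7 CPM on days 4 and 7 at 22 °C and 1114 and 634 CPM at 27 °C in the Col hybrid, and 1540.2, 981, 802 and 934 CPM in that order in the pif4 hybrid. Its level fell, with a log2 difference of -0.75 (SE 0.22, adjusted p = 0.016), and LHCB2.1 and LHCB2.2 fell, with log2 differences of -0.65 (SE 0.22, adjusted p = 0.0326) and -0.73 (SE 0.24, adjusted p = 0.0306). LHCB1.2, LHCB1.4, LHCB1.5 and LHCB3 did not pass the threshold. Within the LHCB1 family, whose coding sequences are 86.8% to 96.4% identical, LHCB1.1 took 19.9% to 21.9% of the family's counts at 22 °C and 17.9% to 19.0% at 27 °C. LHCB1.5 took 13.6% to 16.4% at 22 °C and 17.1% to 20.1% at 27 °C, and neither range overlapped. LHCB2.3 shares 38.6% of its 50-base windows with a neighbour on the opposite strand. All of LHCB1.5's 50-base windows are shared with an annotated locus on the opposite strand that is not among the counted loci, and with unknown strand handling its counts are uncertain.

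The minor antenna proteins LHCB4, LHCB5 and LHCB6 link the trimers to the PSII core. LHCB5 (AT4G10340), the most abundant, had 6562 and 3609 CPM on days 4 and 7 at 22 °C and 3242 and 1902 CPM at 27 °C in the Col hybrid, and 3895, 2984, 2153 and 3422 CPM in that order in the pif4 hybrid. Its fitted log2 difference of -0.61 (SE 0.28, adjusted p = 0.0998) did not pass. LHCB6 (AT1G15820) had 4059 and 2288 CPM on days 4 and 7 at 22 °C and 1954 and 1044 CPM at 27 °C in the Col hybrid, and 2569, 1758, 1272 and 1782 CPM in that order in the pif4 hybrid. It fell, with a log2 difference of -0.76 (SE 0.25, adjusted p = 0.0296) and of -0.38 (SE 0.08, adjusted p = 0.00626) at near-equal depth. LHCB4.3 (AT2G40100) was by far the least abundant member, at 6.2 CPM per kb. It had 21.5 and 6.47 CPM on days 4 and 7 at 22 °C and 8.69 and 3.35 CPM at 27 °C in the Col hybrid, and 12.9, 8.09, 6.06 and 5.03 CPM in that order in the pif4 hybrid. At 27 °C it fell, with a log2 difference of -0.98 (SE 0.21, adjusted p = 0.0031), was lower in all 4 pairs by 0.67 to 1.29 on the log2 scale, and at near-equal depth had -0.47 (SE 0.21, adjusted p = 0.14), which did not pass. This rare gene of the LHCB4 family took 0.143% to 0.341% of the family's counts. LHCB4.1 and LHCB4.2, the main copies, had fitted log2 differences of -0.53 (SE 0.24, adjusted p = 0.0897) and -0.31 (SE 0.21, adjusted p = 0.27).

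PSI subunits hold the antenna in place and dock the electron carriers. PSAH2 (AT1G52230), a docking subunit for the mobile antenna, had 1595 and 1057 CPM on days 4 and 7 at 22 °C and 693 and 391 CPM at 27 °C in the Col hybrid, and 1106, 907, 502 and 682 CPM in that order in the pif4 hybrid. Every 27 °C library lay below every 22 °C library, and in the pif4 hybrid on day 7 the pair differed by -0.41 on the log2 scale. It had the smallest adjusted p of the 44 genes, with a fitted log2 difference of -1.01 (SE 0.21, adjusted p = 0.00248), and -0.65 (SE 0.08, adjusted p = 0.000621) at near-equal depth. PSAE1 (AT4G28750), a stromal subunit at the ferredoxin side, had 1841 and 1163 CPM on days 4 and 7 at 22 °C and 878 and 558 CPM at 27 °C in the Col hybrid, and 1233, 978, 631 and 892 CPM in that order in the pif4 hybrid. Its groups did not overlap, and it fell, with a log2 difference of -0.78 (SE 0.21, adjusted p = 0.0113). PSAN (AT5G64040), which takes part in the docking of plastocyanin at the lumenal side, was the most abundant PSI subunit by CPM and had 2835 and 2458 CPM on days 4 and 7 at 22 °C and 1422 and 1038 CPM at 27 °C in the Col hybrid, and 1884, 2182, 870.2 and 1881 CPM in that order in the pif4 hybrid. Its level fell, with a log2 difference of -0.84 (SE 0.25, adjusted p = 0.0165). PSAD1, PSAD2, PSAF, PSAH1, PSAK, PSAL and PSAO fell as well, by 0.48 to 0.88 on the log2 scale, while PSAE2 and PSAG had -0.38 (SE 0.16, adjusted p = 0.0851) and -0.53 (SE 0.22, adjusted p = 0.0719). Of their 50-base windows, PSAG shares 58.8%, PSAH1 49.2%, PSAE1 29.1% and PSAH2 19.1% with a neighbour on the opposite strand, so their counts are uncertain where strand handling is unknown.

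The oxygen-evolving complex genes encode the extrinsic proteins that stabilise the manganese cluster of PSII. PSBO1 (AT5G66570), the major copy of the manganese-stabilising protein, had 5196 and 2519 CPM on days 4 and 7 at 22 °C and 2739.8 and 1602 CPM at 27 °C in the Col hybrid, and 3098, 2005, 1907 and 2314 CPM in that order in the pif4 hybrid. Its fitted log2 difference was -0.50 (SE 0.25, adjusted p = 0.125), which missed the threshold. PSBO2 (AT3G50820), the minor copy, had 2054 and 1342 CPM on days 4 and 7 at 22 °C and 1015 and 671 CPM at 27 °C in the Col hybrid, and 1464, 1119.5, 766 and 1003 CPM in that order in the pif4 hybrid. It fell without overlap between temperatures, with a log2 difference of -0.76 (SE 0.20, adjusted p = 0.0101) and of -0.47 (SE 0.08, adjusted p = 0.00291) at near-equal depth. PSBQ1 (AT4G21280) had 2017 and 1267 CPM on days 4 and 7 at 22 °C and 931 and 574 CPM at 27 °C in the Col hybrid, and 1413, 1120.1, 684 and 942 CPM in that order in the pif4 hybrid. It fell, with a log2 difference of -0.86 (SE 0.21, adjusted p = 0.00652) and of -0.51 (SE 0.09, adjusted p = 0.00221) at near-equal depth. PSBQ2, its partner, had -0.47 (SE 0.22, adjusted p = 0.109), and PSBP1 fell, with a log2 difference of -0.64 (SE 0.24, adjusted p = 0.0497), close to the threshold.

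The other PSII subunits include PSBS, the sensor of lumen acidification in energy dissipation, and small core subunits. PSBS (AT1G44575) had 1544 and 1152 CPM on days 4 and 7 at 22 °C and 864 and 534 CPM at 27 °C in the Col hybrid, and 1239.8, 1014, 691 and 834 CPM in that order in the pif4 hybrid. Every 27 °C library lay below every 22 °C library, and it fell, with a log2 difference of -0.75 (SE 0.18, adjusted p = 0.0065) and of -0.49 (SE 0.08, adjusted p = 0.00237) at near-equal depth. PSBY (AT1G67740), a small core subunit, had 1336 and 741 CPM on days 4 and 7 at 22 °C and 692 and 409 CPM at 27 °C in the Col hybrid, and 999.9, 599.7, 558 and 576 CPM in that order in the pif4 hybrid. At 27 °C it fell, with a log2 difference of -0.66 (SE 0.18, adjusted p = 0.0114). PSBR (AT1G79040), the most abundant of these 5 by CPM, had 3084 and 2227 CPM on days 4 and 7 at 22 °C and 1618 and 994 CPM at 27 °C in the Col hybrid, and 1899.6, 1818, 946 and 1890.5 CPM in that order in the pif4 hybrid. Its level fell, with a log2 difference of -0.70 (SE 0.26, adjusted p = 0.0484) in the TMM fit, and had a log2 difference of -0.23 (SE 0.08, adjusted p = 0.0548) at near-equal depth, where it missed the threshold. PSBW and PSBX fell by 0.77 and 0.74 on the log2 scale.

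Within the set, shares of the members' counts do not depend on the scaling between libraries. Rubisco small subunit genes took 8.29% to 13.2% at 22 °C and 7.30% to 9.25% at 27 °C, lower at 27 °C in 4 of 4 pairs though the ranges overlap. The PSI antenna took 12.7% to 13.8% at 22 °C and 14.3% to 14.7% at 27 °C. The minor PSII antenna took 9.67% to 10.6% at 22 °C and 11.2% to 11.6% at 27 °C, and neither range overlapped. With age, the Rubisco share was also lower on day 7 in 4 of 4 pairs. The PSI antenna share was higher on day 7 in 4 of 4 pairs and the minor PSII antenna share in 2 of 4. In the shallowest and the deepest library the Rubisco share was 13.2% and 7.30%, its highest and lowest. There the PSI antenna share was 12.7% and 14.7%, its lowest and highest. The part of depth in the shares was not tested. With the 5 LHCB1 and 4 RBCS genes left out, the PSI antenna share was higher at 27 °C in 4 of 4 pairs but its ranges overlapped (20% to 21.4% and 20.8% to 22.0%). The PSI subunits' share was then 23.0% to 24.6% at 22 °C and 22.4% to 22.9% at 27 °C, lower in 4 of 4 pairs. Shares were not tested, since they are fractions of 1 sum.

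**Figure D4:**
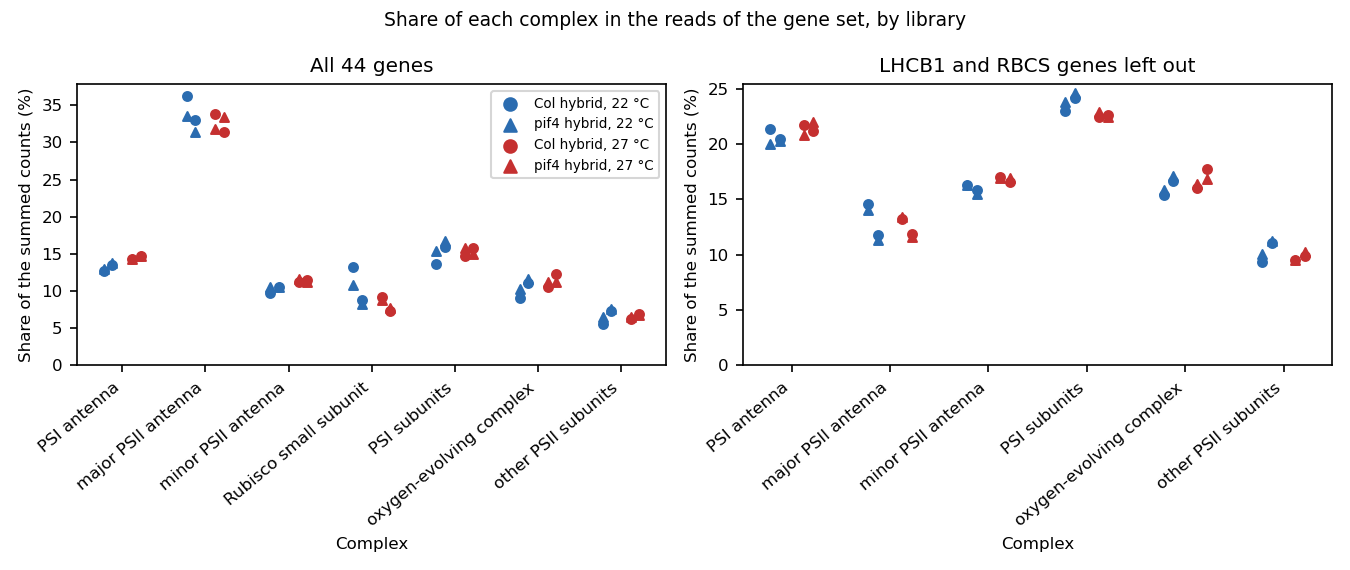
Share of each complex in the summed counts of the 44 genes (%, left) and after leaving out LHCB1 and RBCS genes (right), 1 point per library, coloured by temperature and shaped by hybrid. On the left, the PSI antenna and the minor PSII antenna lie higher at 27 °C without overlap, and the Rubisco genes lie lower in each pair.

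Copies of the same subunit were also compared within a library, where the scaling between libraries drops out of the ratio. The log2 ratio of counts of PSBQ1 to PSBQ2 was -0.34 and -0.88 on days 4 and 7 at 22 °C and -0.80 and -1.23 at 27 °C in the Col hybrid, and -0.36, -0.89, -0.73 and -1.24 in that order in the pif4 hybrid. It was lower at 27 °C in all 4 pairs, by 0.35 to 0.46, with a mean difference of -0.38, and lower on day 7 in all 4 pairs, by 0.44 to 0.54. Exact two-sided permutation tests of 4 against 4 libraries, which leave the matching aside and so keep the other factors in the spread, gave p = 0.171 for temperature and p = 0.0286 for age, the smallest p they can give. The exact permutation test within the 4 matched pairs gave p = 0.125 for each, which is the smallest that 4 pairs allow. After Benjamini-Hochberg adjustment over 15 such unpaired tests, the smallest adjusted p was 0.214. PSAE1 to PSAE2 had a mean difference of -0.40 between temperatures (exact permutation p = 0.0286), and PSAD1 to PSAD2 of -0.19 (p = 0.0571, exact permutation). PSAH1 to PSAH2 differed by 0.38 (p = 0.0571, exact permutation) and PSBO1 to PSBO2 by 0.26 (p = 0.114, exact permutation). Each of the 5 ratios kept 1 direction in all 4 temperature pairs, so the paired exact permutation p was 0.125 for every one of them. The PSBO and PSBQ genes share no 50-base window with any other gene. PSAD2 overlaps a gene on the same strand, and both PSAE and both PSAH genes overlap genes on the opposite strand, so their ratios are less certain. PSAD1 to PSAD2 and PSAE1 to PSAE2 were highest in the shallowest library (0.80 and 1.76) and lowest in the deepest (0.32 and 0.84), and the part of depth in the ratios was not tested. These ratios and their tests were chosen after seeing the data.

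**Figure D5:**
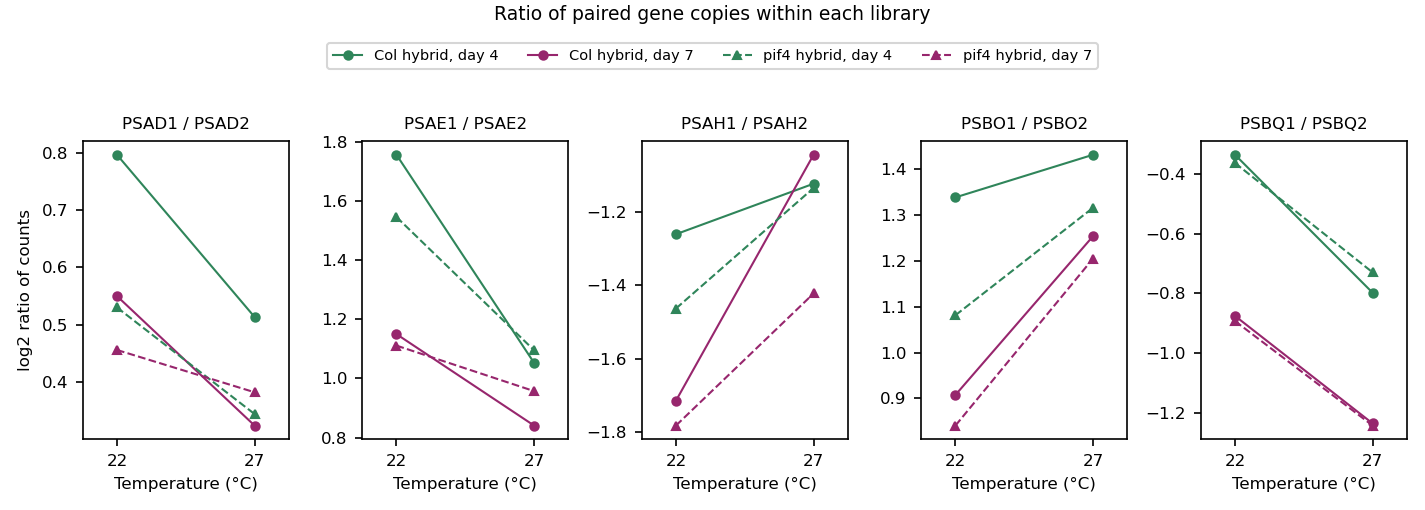
Log2 ratio of counts of 2 copies of a subunit (vertical axis, separate scale in each panel) at 22 °C and 27 °C, with lines joining the 2 libraries of a matched pair. In each panel all 4 lines run the same way, and PSBQ1 to PSBQ2 falls by 0.35 to 0.46.

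Genes around the set were examined as lists. Their counts stand beside 19.2% of all genes tested called lower and 19.5% called higher with temperature. These calls come from the TMM fit alone. No depth alternative and no fit with a library left out is given for these lists. The part of depth in these calls was not tested, so they are not to be read as firmer than those of the members. Of 5 rare antenna genes all 5 fell with temperature, among them LHCA5, at -1.07 (SE 0.13, adjusted p = 7.56e-05), and LHCA6, at -0.74 (SE 0.13, adjusted p = 0.000855). ELIP2, an early light-induced protein gene, had 2.86 and 1.84 CPM on days 4 and 7 at 22 °C and 0.652 and 0.423 CPM at 27 °C in the Col hybrid, and 2.56, 1.27, 0.354 and 0.265 CPM in that order in the pif4 hybrid. It fell, with a log2 difference of -2.35 (SE 0.31, adjusted p = 0.000168), at levels near the detection limit. Of 11 electron transport and ATP synthase genes 9 fell, with FNR2 and FNR1, ferredoxin-NADP reductases, at -1.06 (SE 0.14, adjusted p = 0.000197) and -1.04 (SE 0.17, adjusted p = 0.000644), and the ATP synthase gene ATPD at -1.10 (SE 0.18, adjusted p = 0.000682). Of 15 Calvin cycle genes 11 fell, with SBPASE, sedoheptulose bisphosphatase, at -0.88 (SE 0.14, adjusted p = 0.000573), GAPA2 at -1.08 (SE 0.21, adjusted p = 0.00153) and PGK1 at -0.80 (SE 0.15, adjusted p = 0.00175). Of 8 genes for antenna targeting and phosphorylation 4 fell, with the state transition kinase gene STN7 at -0.79 (SE 0.10, adjusted p = 0.000128), the signal recognition receptor gene FTSY at -0.78 (SE 0.11, adjusted p = 0.000183) and CPSRP54 at -0.64 (SE 0.11, adjusted p = 0.000934). Of 8 regulator genes 7 fell, with the sigma factor genes SIG1 and SIG5 at -0.69 (SE 0.11, adjusted p = 0.00052) and -0.88 (SE 0.14, adjusted p = 0.000575), and CGA1 at -1.07 (SE 0.19, adjusted p = 0.00107). GLK1, a transcription factor that activates antenna genes, had 68.0 and 92.99 CPM on days 4 and 7 at 22 °C and 46.3 and 51.9 CPM at 27 °C in the Col hybrid, and 75.4, 80.7, 62.2 and 59.8 CPM in that order in the pif4 hybrid. At 27 °C it fell, with a log2 difference of -0.53 (SE 0.12, adjusted p = 0.00355), and GLK2 fell, with a log2 difference of -0.47 (SE 0.11, adjusted p = 0.00524). Of 9 root markers tested, 1 rose and 0 fell with temperature, CASP5 at 0.53 (SE 0.20, adjusted p = 0.049).

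The age comparison set day 7 against day 4. Of the 44 genes 9 fell and 0 rose, beside 24% called lower and 24.8% called higher among all genes tested, so the share of members that fell lies near the share of all genes. The median was -0.38. The genes that fell were LHCB2.1, LHCB2.3, LHCB4.3, RBCS2B, RBCS3B, PSAF, PSAH1, PSAL and PSBY. The age pair medians were -0.84 and -0.77 in the Col hybrid at 22 °C and 27 °C and -0.44 in the pif4 hybrid at 22 °C, with depth ratios of 2.82, 1.48 and 1.01, and 0.46 in the pif4 hybrid at 27 °C with a depth ratio of -0.91. The count of 9 was 1 without the library of Col 22 °C day 4 (20.7% of all genes called lower), Col 22 °C day 7 (20.1%), pif4 22 °C day 4 (17.3%) or pif4 22 °C day 7 (17.2%). It was 4 without Col 27 °C day 7 (24.8%), 6 without Col 27 °C day 4 (27.8%), 10 without pif4 27 °C day 4 (18.4%) and 40 without pif4 27 °C day 7 (17.5%). LHCB4.3 and RBCS3B fell in the TMM fit and the 3 depth alternatives, with log2 differences of -0.95 (SE 0.21, adjusted p = 0.0025) and -0.93 (SE 0.30, adjusted p = 0.0221) in the TMM fit. Over all genes the shares called lower and higher were 18.3% and 19.5% with the covariate, 25% and 24.4% with trend offsets and 16.4% and 18.5% at near-equal depth. PSAN and PSBQ2 rose in all 3 depth alternatives and not in the TMM fit, PSAN by 0.57 (covariate), 0.47 (trend offsets) and 0.40 (near-equal depth), and PSBQ2 by 0.53, 0.51 and 0.41. The share of all genes called in these fits jointly was not counted. Root markers fell with age in 7 of 9 tested, and their part in the age result was not tested.

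The genotype comparison set the pif4 hybrid against the Col hybrid. No member was called by edgeR or DESeq2, and no member had an unadjusted p under 0.05. Over all genes 0.00504% were called higher and 0% lower, and the 44 members had a median of -0.19 and a range of -0.35 to -0.04. The pair medians were -0.67 (22 °C, day 4), -0.28 (22 °C, day 7), -0.53 (27 °C, day 4) and 0.71 (27 °C, day 7), with depth ratios of 2.42, 0.61, 1.19 and -1.19, so in each pair the median of the members was lower in the deeper library. The part of depth in these values was not tested.

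None of the 44 genes passed the test of an interaction. For genotype by temperature the smallest adjusted p was 0.9999, with a median of 0.62. For age by temperature it was 0.603 with a median of 0.56, and for genotype by age 0.573 with a median of 0.85. At an unadjusted p of 0.05, edgeR gave 0, 0 and 26 members and DESeq2 gave 1, 2 and 38. The same cutoff gave 188, 1791 and 1686 of all 19829 genes tested with edgeR, and 60, 1005 and 878 with DESeq2. By adjusted p, 0.0756% of all genes tested were called higher and 0.192% lower for age by temperature. For genotype by age 0.0908% were called higher, and for genotype by temperature 0%. With the Col hybrid 27 °C day 7 library left out, 26 members had a higher age by temperature term (0.322% of all genes higher). With the pif4 hybrid 22 °C day 7 library left out, 37 had a higher genotype by age term (0.378% of all genes higher). The Col hybrid 27 °C day 7 library was the deepest of all. In the pif4 hybrid on day 7 the 27 °C library was the shallower of its pair (11125696 against 17884174 counts), unlike the other temperature pairs. The part of depth in the interaction terms was not tested.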

How the data were processed

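Whole seedlings of 2 hybrids were measured by RNA sequencing, 1 library for each of 8 conditions. The values that the authors deposited are whole-number counts of reads for each gene, without normalisation. The submitters' processing notes list the build TAIR10 and the tools HTSeq 0.6.1p1, StringTie 1.3.5, Picard, HISAT2 and FastQC 0.11.5, without roles. Per the labels' protocols, stranded and unstranded kits were both used, with no statement of which library had which, so counts of overlapping and antisense genes are uncertain.

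Genes with 0.876 CPM (10 counts in the library of median size) in 4 or more libraries were kept, and counts were scaled by TMM and fitted in R 4.3.3 by edgeR's quasi-likelihood F-test (edgeR 4.0.16, limma 3.58.1), with DESeq2 1.42.0 as an alternative and temperature, genotype and age in 1 additive model (4 residual degrees of freedom). Each interaction was tested in its own model (3 residual degrees of freedom). P-values were adjusted by Benjamini-Hochberg over 19829 genes, with a threshold of 0.05, and measure only the spread between these 8 samples. Each SE was taken as the size of the log2 difference over the root of its F value. Within-pair log2 ratios use a prior count of 2. The trend offsets used a lowess span of 0.1 fitted without the members, with other photosynthesis genes kept. The fit was checked on simulated counts.

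The members and gene lists were chosen with earlier results of these data known. Values in every library are given for the 2 members of each complex with the smallest temperature p and the member with the highest mean CPM. Of each other list, up to 3 genes past the threshold were named by p, with GLK1, GLK2 and PIF4 besides. Of the 44 names, 36 match a RefSeq symbol or synonym in TAIR10.1.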

Additional observations from a re-analysis of the deposited data

Results flagged for a closer look

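Opposite directions between groups drew attention to 5 values. Between the hybrids, the age change (day 7 against day 4) was lower in both Col pairs and higher in both pif4 pairs for PSAE2, PSAN, PSBQ2 and PSBW. The difference of the mean log2 changes, pif4 minus Col, was 0.62 for PSAE2, 0.99 for PSAN, 0.78 for PSBQ2 and 0.84 for PSBW. The depth ratios of these age pairs, on the log2 scale, were 2.82 and 1.48 in the Col hybrid and 1.01 and -0.91 in the pif4 hybrid, and their part in the differences was not tested. For LHCB4.3 the genotype change was lower on day 4 in both pairs (-0.73 and -0.51) and higher on day 7 in both (0.32 and 0.57), a difference of 1.06. On day 4 the log2 depth ratios behind those genotype values were 2.42 and 1.19, against 0.61 and -1.19 for day 7. The genotype by age term was above 0 for all 44 members, from 0.49 to 1.36 on the log2 scale, so this direction is not particular to these genes. The separation of pairs by direction was not itself tested. The genotype by age term of edgeR's quasi-likelihood test gave adjusted p = 0.573 for PSAN, PSBW and LHCB4.3, 0.580 for PSAE2 and 0.582 for PSBQ2.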

How the results depend on the processing

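No fit with replicate numbers as a block was run, because the labels give none; libraries are matched by the other 2 factors, which are in the model. The main limits are the 1 library per condition, the spread of library totals and counts shared among close copies.
Setting library size to the members' total puts the members near 0 by construction. With it, 0 members fell with temperature (0.287% of all genes tested called lower). The median was then -0.0059 over the members and 0.77 over all genes tested. Of the members that fell in the TMM fit, 8 then had a value above 0, namely LHCB2.1 (0.085), LHCB2.2 (0.00080), PSAD1 (0.068), PSAD2 (0.26), PSAF (0.041), PSAH1 (0.083), PSBP1 (0.077) and PSBY (0.077). Members not called in the TMM fit are left out of this list. Without both Col hybrid day 4 libraries, 18 fell with temperature (24.4% of all genes) and 0 with age (24.6%). Age calls that fell were 15 with no filter (18.1% of all genes), 2 with the library total as covariate, 1 with the members' total (0.953%) and 15 at near-equal depth, and calls that rose were 2 with the covariate, the trend offsets and the members' total (9.72% of all genes called higher) and 5 at near-equal depth, where PSAK (0.24) and PSBR (0.23) turned higher. With trend offsets, the temperature pair medians were -0.52, -0.47 and -0.40 in place of -1.06, -0.98 and -0.92. Leaving out 1 library gave 6 to 44 members that fell with temperature (median -1.04 to -0.53), 1 to 40 that fell with age (median -0.71 to -0.19), 0 to 26 that rose for age by temperature and 0 to 37 for genotype by age. The cause of the other moves was not tested. Alternatives marked near-equal depth were chosen after seeing the data.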
